A study of Drosophila melanogaster with 6 samples.

Results

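The Rab genes encode small GTPases that sit on the membranes of the cell and direct vesicle traffic. Members were taken by symbol, as every gene named Rab or RabX followed by a number, which gave 33 of the 15132 genes matched in the deposited tables. They were measured in imaginal leg discs of white [1118] *Drosophila melanogaster*, the epithelial sacs of the larva from which the adult legs form. Discs were taken from wandering L3 larvae (wL3, before the ecdysone peak) and from prepupae at 2 hours after pupal formation (2h APF), with 3 libraries of polyA RNA per stage and no other genotype or treatment. The comparison asks how the transcripts of the trafficking machinery stood before and after the larva to prepupa transition.

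A Rab protein is loaded with GTP by an exchange factor, then recruits effectors such as tethers, motors and sorting complexes, and is switched off by a GTPase activating protein (GAP). Prenyl groups added to its end hold it in the membrane, and GDI takes it back out for another round. Different Rabs mark different steps, from the endoplasmic reticulum (ER) and Golgi to exocytosis, recycling, endosomes and lysosomes. In imaginal discs this traffic carries adhesion molecules, signalling receptors, cuticle and matrix components, and discs change shape strongly at the onset of metamorphosis. The grouping by step used here follows this textbook knowledge, partly from yeast and mammalian cells.

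The libraries held between 24395318 and 33373176 estimated counts. Libraries of a stage correlated across genes at r of 0.974 to 0.992, against 0.886 to 0.922 for libraries of different stages. Nothing in the labels says that the 3 libraries of a stage came from separate cultures or animals, so p-values measure the spread between these samples, which may be technical. The tissue label reads leg disc, although embryos are named in the protocol text for RNA extraction. The 7 leg disc markers (*Dll*, *dac*, *hth*, *al*, *Lim1*, *bab2* and *Antp*) were detected in every library, with a summed level of 2265 to 2284 CPM (counts relative to library size, scaled between libraries by the TMM method) at wL3 and 2009 to 2082 CPM at 2h APF. Markers of tissues that lie near the discs were unevenly present. The fat body sum was 32.2, 3327 and 2207 CPM in wL3 replicates 1, 2 and 3 and 188 to 855 CPM at 2h APF. The 4 differentiated muscle markers summed to 19.0 to 117 CPM at wL3 and at most 1.01 CPM at 2h APF.

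Of the 33 Rab genes, 25 had at least 10 counts in every library, and the same 25 passed edgeR's expression filter and entered the test. Rab26, a Rab linked to secretory and synaptic vesicles, had 1, 8 and 10 counts at wL3 and 12, 6 and 6 counts at 2h APF, and was not tested. The other 7 had at most 2 counts in any library. They were RabX5, RabX2 and the 5 lettered Rab9 genes, Rab9D, Rab9Db, Rab9E, Rab9Fa and Rab9Fb. RabX2 and the lettered Rab9 genes lie within 535.1 kb of each other on the X chromosome (10417429 to 10952486, BDGP6.54), and these 6 genes together gave 3 counts over all libraries. RNA of these genes was not detectable at this depth beyond single counts. By chromosome, 7 of the 13 members on the X had at least 10 counts in every library, against all 5 on each of 2L, 2R and 3R and 3 of the 5 on 3L.

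Levels of different genes were compared as TPM, which takes transcript length into account. Rab11, the Rab of the recycling endosome, had the highest TPM of the family at both stages, 278 to 286 TPM at wL3 and 367 to 386 TPM at 2h APF, and ranked 385 and 319 among all genes by its stage means. Rab1, which acts between ER and Golgi, was next with 193 to 204 TPM and then 312 to 317 TPM. These levels did not overlap those of Rab11 at either stage. Rab5, the Rab of early endosomes, had 141 to 149 TPM and Rab7, the Rab of late endosomes, had 140 to 143 TPM at wL3. Rab5 stood above Rab7 within every library of both stages, although their ranges over libraries overlapped at wL3 and not at 2h APF (221 to 225 against 187 to 201 TPM).

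Below these came Rab4 and Rab8 at wL3, at 90.5 ± 2.71 and 87.7 ± 1.29 TPM (SD, n = 3), with overlapping ranges. Rab6 followed at 72.4 TPM and was the seventh member at wL3, whereas at 2h APF it was the fifth with 159 TPM and Rab4 was the seventh with 86.9 TPM. Rab35, Rab10, Rab2 and Rab14 had wL3 means between 50.2 and 54.2 TPM, and each of these 4 overlapped its neighbour in the order. From Rab23 (41.4 TPM) downward the order of the wL3 means ran through Rab40, Rab19, Rab39, Rab21 and RabX1 to Rab27 (12.9 TPM), Rab30, RabX4, RabX6, Rab9 (4.18 TPM), Rab32 (2.93 TPM) and Rab3 (0.603 TPM). Levels of the tested members thus ranged from 0.603 to 283 TPM at wL3.

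**Figure D1:**
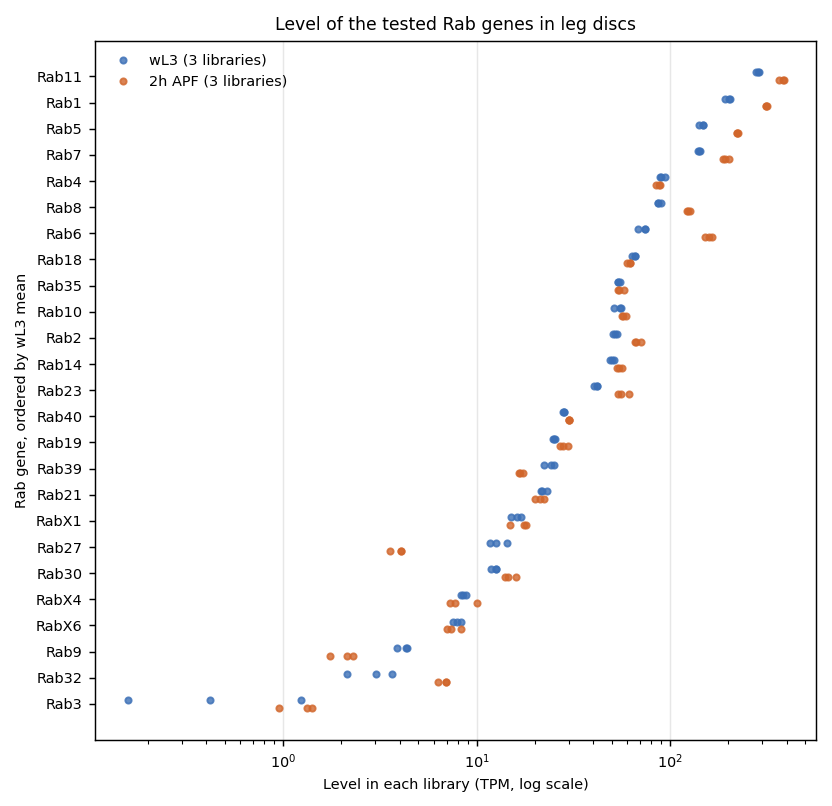
TPM of each detected Rab gene in each library, on a log axis, with the 3 wL3 libraries and the 3 2h APF libraries as separate points. Rab11 is highest at both stages (283 and 379 TPM on average), Rab6 moves up from 72.4 to 159 TPM and Rab27 moves down from 12.9 to 3.90 TPM.

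Between the stages, 13 of the 25 tested Rab genes rose at 2h APF and 3 fell at an adjusted p under 0.05 (edgeR quasi-likelihood test, Benjamini-Hochberg adjustment over 8942 genes). The share of Rab genes called, 64%, was near the 67.4% called among all genes tested. In the upward direction the share was 52%, against 30.6% of all genes, and 3 of 25 fell against 36.9% of all genes. The median log2 fold change was 0.13 over the tested Rab genes and -0.04 over all genes. Beyond 1 log2 unit, Rab6 and Rab32 rose (9.74% of all genes) and Rab27 and Rab9 fell (8.90% of all genes), so that 4 of 25 were past this size in either direction, near the 18.6% of all genes. The 3 libraries of one stage lay wholly above the 3 of the other for 18 of the 25, where 73.3% of all genes had no overlap. The 2h APF libraries were above for 14 (33.3% of all genes) and the wL3 libraries for 4 (40.0% of all genes). By size, and by overlap counted without regard to direction, the Rab genes were thus near the background of all genes. In the shares by direction given above, more of the Rab genes were higher at 2h APF and fewer lower than among all genes.

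These counts depended on the scaling between libraries. When libraries were scaled by their total counts instead, 9 Rab genes were higher and 5 lower rather than 13 and 3, the median over all genes moved by -0.11 on the log2 scale, 34.9% rather than 45.3% of all called genes were higher at 2h APF, and the median of the Rab genes became 0.01. With no filter on low counts, 10 were higher and 3 lower. In these bulk samples, fewer cells of a type and less RNA per cell cannot be told apart.

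**Figure D2:**
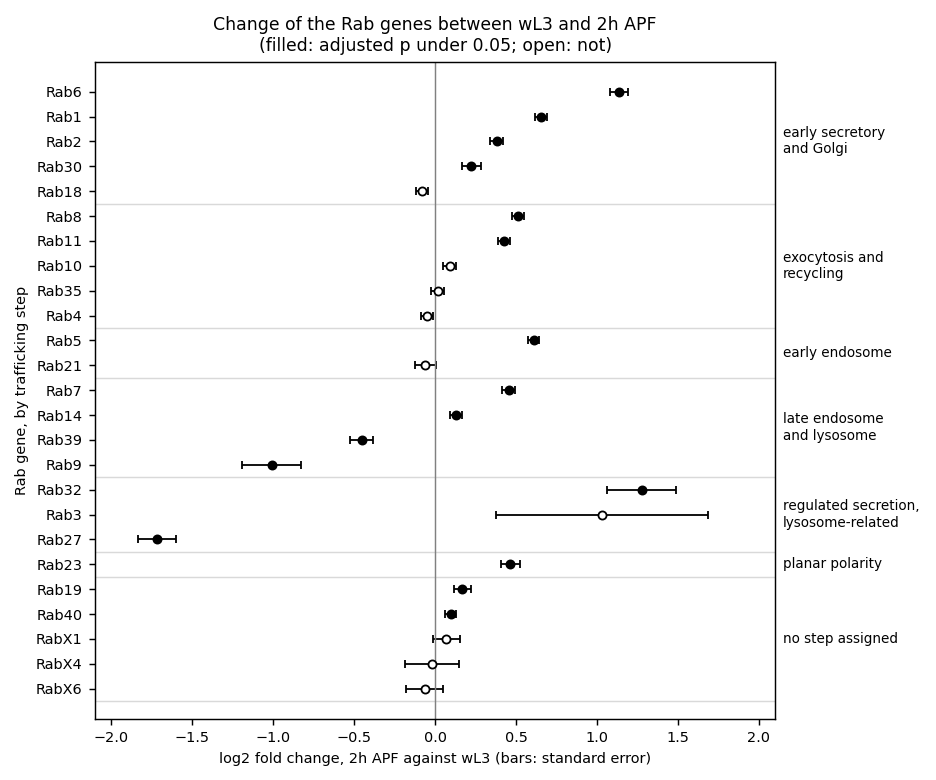
Log2 fold change of the 25 tested Rab genes, 2h APF relative to wL3, with bars of 1 standard error, grouped by trafficking step. The largest rises are those of Rab32 and Rab6, the largest falls those of Rab27 (-1.72) and Rab9 (-1.01), and 9 genes did not pass the test.

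The Rabs of the early secretory pathway and Golgi rose in 4 of 5 cases, and none fell, where 30.6% of all genes rose and 36.9% fell. With total library size, Rab1, Rab2 and Rab6 were higher and Rab18 lower. Rab6 acts in transport within the Golgi and from the Golgi to the ER and the cell surface, and lies on 2L (12107221 to 12109116, BDGP6.54). Its level was 103, 92.9 and 101 CPM in wL3 replicates 1 to 3, and 206, 219 and 227 CPM in the 2h APF replicates. Each 2h APF library lay far above each wL3 library, and the mean was 2.20-fold higher (log2 fold change 1.14 ± 0.0541 SE, edgeR adjusted p = 3.8e-06). Rab6 kept its rise under each of the 15 alternatives, and it was the single Rab gene that rose in a test against a change of 1 log2 unit (edgeR glmTreat, adjusted p = 0.0452).

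Rab1 (3R, 21266029 to 21269060) stood at 286, 265 and 277 CPM at wL3 and 428, 435 and 439 CPM at 2h APF. It rose 1.57-fold (log2 fold change 0.65 ± 0.0351 SE, edgeR adjusted p = 5.98e-06), with no overlap. Its annotated span shares 1540 bases with that of the antisense RNA asRNA:CR45798, and the strand setting used to assign the reads is not given in the sources used here. Rab2, which acts at the Golgi and in flies also in the delivery of cargo to lysosomes, had 86.3, 88.6 and 86.2 CPM at wL3 and 109, 112 and 119 CPM at 2h APF. Rab2 rose 1.30-fold (edgeR adjusted p = 1.5e-04), less than Rab1 in size.

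Rab30, a Golgi Rab, had 18.9, 17.3 and 18.2 CPM and then 22.03, 21.1 and 20.5 CPM. The step between the stages was small but larger than the spread (log2 fold change 0.22 ± 0.0571 SE, edgeR adjusted p = 0.0109), and with total library size it did not pass (0.11, adjusted p = 0.141). Rab18, known from mammalian cells for its place on ER and lipid droplets, stood apart from the other 4. It had 32.4, 32.98 and 32.7 CPM at wL3 and 30.7, 31.7 and 30.4 CPM at 2h APF (log2 fold change -0.08 ± 0.0363 SE, edgeR adjusted p = 0.0855). All wL3 libraries lay above all 2h APF libraries, and Rab18 was called lower with total library size (-0.19, adjusted p = 0.00252) and with limma on log2(TPM + 0.5) (adjusted p = 0.0416).

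Among the Rabs of exocytosis and recycling, 2 of 5 rose and none fell, against 30.6% and 36.9% of all genes. Rab11 (3R, 21111408 to 21116146), which brings membrane from recycling endosomes and the Golgi to the surface, had 347, 331 and 337 CPM at wL3 and 435, 465 and 464 CPM at 2h APF. It rose 1.34-fold (log2 fold change 0.43 ± 0.0376 SE, edgeR adjusted p = 5.88e-05). Rab8, which carries secretory cargo to the plasma membrane, had 153, 146 and 146 CPM and then 204, 217 and 211 CPM. It rose 1.42-fold (log2 fold change 0.51 ± 0.0360 SE, edgeR adjusted p = 2.01e-05), and the groups lay far apart for both genes compared with their spread.

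The remaining 3 Rabs of this step did not pass the test. Rab10, which in fly follicle cells directs basement membrane proteins to the basal side, had 88.8, 94.8 and 94.7 CPM at wL3 and 100, 97.4 and 98.3 CPM at 2h APF (log2 fold change 0.09 ± 0.0374 SE, edgeR adjusted p = 0.0717). The groups did not overlap but lay close. DESeq2 called Rab10 higher (0.13, adjusted p = 0.0108), as did the edgeR fits with at least 10 counts in every library (adjusted p = 0.0215), with counts rescaled from TPM (adjusted p = 0.0305) and without wL3 replicate 1 (0.10, adjusted p = 0.0468), and the sign turned with total library size (-0.02). Rab4, a Rab of fast recycling, ranged from 77.1 to 79.6 CPM at wL3 and from 73.4 to 77.4 CPM at 2h APF. Rab35, which acts in recycling and on the actin cytoskeleton, ranged from 93.9 to 96.7 CPM and from 92.5 to 101 CPM. Both overlapped between the stages (log2 fold changes -0.05 ± 0.0345 and 0.02 ± 0.0407 SE, edgeR adjusted p = 0.228 and 0.740). With total library size Rab4 was called lower (-0.16, adjusted p = 0.00342), so that the step then had 2 higher and 1 lower.

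In the early endosome pair, Rab5 rose and Rab21 did not pass the test. Rab5 (2L, 2359142 to 2365273), which drives the fusion of incoming endocytic vesicles, had 215, 200 and 209 CPM at wL3 and 316, 319 and 317 CPM at 2h APF. The 2h APF libraries were almost equal, and the rise was 1.53-fold (log2 fold change 0.61 ± 0.0339 SE, edgeR adjusted p = 7.02e-06). Rab21, known for the traffic of integrins, had 15.5, 16.2 and 14.9 CPM and then 15.4, 15.1 and 14.1 CPM, with overlapping stages (edgeR adjusted p = 0.434).

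The 4 Rabs of late endosomes and lysosomes were all called, where 67.4% of all genes were, and they were split evenly in direction. Rab7, which delivers cargo to lysosomes, had 157, 151 and 150 CPM at wL3 and 201, 219 and 209 CPM at 2h APF, and rose 1.37-fold (log2 fold change 0.46 ± 0.0404 SE, edgeR adjusted p = 6.09e-05). Rab14, an endosomal Rab that in flies acts in phagosome maturation, had 45.0, 42.8 and 42.9 CPM and then 48.7, 47.8 and 46.4 CPM. Its rise was slight (0.13 ± 0.0378 SE, edgeR adjusted p = 0.0201), and its annotated span shares 1411 bases with that of lncRNA:CR44851 on the opposite strand. With total library size little of it was left (0.0145, adjusted p = 0.761), and with no filter on low counts it did not pass (adjusted p = 0.0662). Nor did it pass without wL3 replicate 2 (0.12, adjusted p = 0.145), without wL3 replicate 3 (0.11, adjusted p = 0.0849) or without 2h APF replicate 1 (0.11, adjusted p = 0.0570).

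Rab39, a lysosomal Rab, fell from 20.4, 22.4 and 21.9 CPM to 14.9, 15.3 and 16.9 CPM (log2 fold change -0.45 ± 0.0696 SE, edgeR adjusted p = 9.48e-04). Rab9, which acts between late endosomes and the Golgi, fell from 4.54, 4.98 and 4.91 CPM to 2.00, 2.48 and 2.67 CPM. The stages did not overlap for either gene, and Rab9 was 2.02-fold lower at 2h APF (log2 fold change -1.01 ± 0.183 SE, edgeR adjusted p = 0.00221). Rab9 kept its fall in every alternative, but the fall was short of 1 log2 unit in several of them and was -0.87 at its smallest. These were the fits without wL3 replicate 2 (-0.98), without wL3 replicate 3, without 2h APF replicate 1 (-0.90) and with DESeq2 (-0.96). The same held with at least 10 counts in every library, with counts rescaled from TPM and with both limma fits on log2 TPM. Rab9 did not pass the test against a change of 1 log2 unit (edgeR glmTreat).

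Of the Rabs of regulated secretion and lysosome-related organelles, Rab32 rose, Rab27 fell, Rab3 did not pass the test and Rab26 was too low for the filter. Rab27 (X, 1473884 to 1476974), which in mammals acts in the release of secretory granules and exosomes, had 12.9, 15.6 and 13.7 CPM at wL3 and 3.87, 4.49 and 4.45 CPM at 2h APF. All wL3 libraries were well above all 2h APF libraries, and Rab27 was 3.30-fold lower at 2h APF (log2 fold change -1.72 ± 0.118 SE, edgeR adjusted p = 1.76e-05). This was the largest fall of the family, and it lay between -1.60 and -1.83 under the alternatives run.

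Markers of blood cells (hemocytes) moved in the same direction as the Rab genes that fell. All 6 hemocyte markers (*Hml*, *NimC1*, *Pxn*, *eater*, *srp* and *He*) fell, and their summed level was 144, 299 and 234 CPM in wL3 replicates 1, 2 and 3 and 21.2 to 28.6 CPM at 2h APF. Rab27, Rab39 and Rab9 had the same order of the wL3 libraries as that sum, lowest in replicate 1 and highest in replicate 2. The order was not particular to them, as Rab23 and Rab32, which rose, and Rab10, Rab18 and RabX1, which did not pass, also had it. The sums of fat body and differentiated muscle markers given above had that order too, and the muscle markers were also lower at 2h APF in every library. In wL3 replicate 1, Rab27 was at 12.9 CPM, and the hemocyte sum was the lowest of that stage but above every 2h APF library. The part of RNA from these tissues in the falls was not tested. Without wL3 replicate 2, the fold changes were -1.64 for Rab27, -0.43 for Rab39 and -0.98 for Rab9.

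Rab32, known in fly eyes for the formation of pigment granules, a lysosome-related organelle, had 3.58, 6.64 and 5.09 CPM at wL3 and 12.6, 11.7 and 12.7 CPM at 2h APF. The wL3 libraries were scattered, yet all lay below the 2h APF libraries, and Rab32 rose 2.42-fold (log2 standard error 0.215, edgeR adjusted p = 0.00153). Its annotated span shares 1101 bases with that of lncRNA:CR44284 on the opposite strand. Rab3, the Rab of synaptic vesicles, whose annotated span shares 2003 bases with that of *CAH13* on the opposite strand, had 0.481, 1.26 and 3.67 CPM at wL3 and 3.95, 4.30 and 2.88 CPM at 2h APF. The stages overlapped through wL3 replicate 3 (log2 fold change 1.03 ± 0.655 SE, edgeR adjusted p = 0.201), and without that library Rab3 was called higher (2.09, adjusted p = 0.0117).

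The summed markers of neurons and of salivary glands had the same library order at wL3 as Rab3. The order was not particular to them. Rab26, RabX4 and RabX6 also had it, as did the sum of 4 myoblast markers (132.8, 134.4 and 135.5 CPM). Single markers departed from that order, namely *elav* and *futsch* of the neuron list and *Sgs1*, *Sgs5* and *Sgs7* of the glue genes. The sum of 6 neuron markers was 110, 134 and 151 CPM at wL3 and 226, 274 and 232 CPM at 2h APF, and that of 5 salivary glue genes was 50.9, 65.3 and 194 CPM at wL3 and at most 0.271 CPM at 2h APF. Of the neuron markers, *futsch* alone passed the test (log2 fold change 2.21, edgeR adjusted p = 9.49e-06), whereas *elav*, *nSyb*, *Syt1*, *brp* and *Syn* did not. The part of these tissues in the values of Rab3 was not tested.

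Rab23 rose as well. In flies it acts in planar polarity of the epidermis, and in mammals it restrains Hedgehog signalling. It had 71.0, 72.0 and 71.6 CPM at wL3 and 92.0, 107 and 96.4 CPM at 2h APF. The wL3 libraries were tightly grouped, the 2h APF libraries more scattered, and the rise was 1.38-fold (log2 fold change 0.46 ± 0.0584 SE, edgeR adjusted p = 3.59e-04).

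Of the 12 members without an assigned step, 5 were tested, 2 rose and none fell, against 30.6% and 36.9% of all genes. Rab19 rose slightly, from 16.6 to 17.3 CPM at wL3 to 18.4 to 19.7 CPM at 2h APF (log2 fold change 0.17, edgeR adjusted p = 0.0256), and Rab40, which carries a SOCS box that binds ubiquitin ligase components, from 32.2 to 33.3 CPM to 34.5 to 35.5 CPM (0.10, adjusted p = 0.0426). Both calls were at the edge of the threshold. With total library size Rab19 went to 0.05 (adjusted p = 0.425) and Rab40 to -0.0175 (adjusted p = 0.682), and with no filter on low counts neither passed (adjusted p = 0.0808 and 0.127). Rab19 did not pass without wL3 replicate 2 or 3 or without 2h APF replicate 1 or 3 (adjusted p between 0.0606 and 0.0824), and Rab40 without any one of 5 libraries, all but wL3 replicate 1 (adjusted p between 0.0564 and 0.170). RabX1, RabX4 and RabX6 overlapped between the stages, with log2 fold changes of 0.07, -0.02 and -0.06 and edgeR adjusted p of 0.503, 0.922 and 0.640. The sign of RabX4 changed with the setting.

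Summed over all members, Rab transcripts took up 1506, 1486 and 1513 TPM at wL3 and 1968, 2004 and 2002 TPM at 2h APF. The groups were far apart compared with their spread, and the mean was 1.33-fold higher at 2h APF. With 3 libraries against 3, the exact two-sided permutation test gave p = 0.1, the smallest it can give. The early secretory Rabs went from 402 ± 8.42 to 617 ± 8.92 TPM (SD, n = 3), a ratio of 1.54, and from 26.7% to 31.0% of the Rab total. The exocytosis and recycling Rabs went from 569 to 703 TPM, a ratio of 1.24, and from 37.9% to 35.3% of the total. Early endosome Rabs had a ratio of 1.45, late endosome and lysosome Rabs 1.22 and Rabs of regulated secretion 0.728. The Rab total thus held more early secretory transcripts and a smaller share of the recycling ones at 2h APF, while recycling Rabs were still the largest group.

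**Figure D3:**
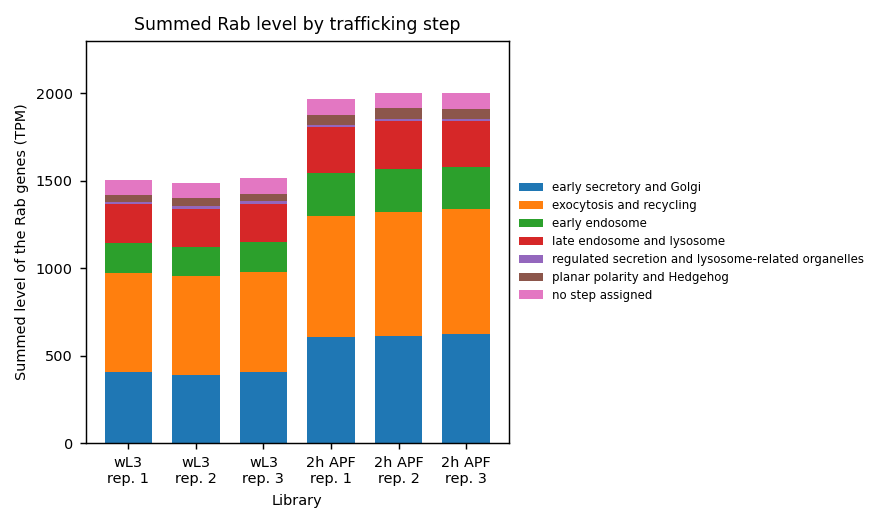
Summed TPM of the Rab genes in each of the 6 libraries, stacked by trafficking step. The total is 1486 to 1513 TPM in the wL3 libraries and 1968 to 2004 TPM in the 2h APF libraries, and exocytosis and recycling is the largest step in each.

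Ratios between members of the same step were formed within each library, since a factor common to a library cancels in them. Each of the 8 pairs sets a member that rose over one that rose less, did not pass or fell, chosen with those results known. That all ratios were higher at 2h APF follows from this choice, so the ratios describe the size of the shifts and no test is given. The ratio of Rab6 to Rab18 in TPM was 1.17, 1.03 and 1.13 at wL3 and 2.46, 2.56 and 2.78 at 2h APF. The balance of these Golgi and ER Rabs therefore went from near parity to a clear excess of Rab6. The ratio of Rab1 to Rab2 went from 3.85 ± 0.195 to 4.65 ± 0.151 (SD, n = 3), a smaller shift.

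In recycling and exocytosis, the ratio of Rab8 to Rab10 went from 1.63 ± 0.102 to 2.17 ± 0.0966, that of Rab11 to Rab4 from 3.13 ± 0.0986 to 4.36 ± 0.0371 and that of Rab11 to Rab35 from 5.21 ± 0.0479 to 6.88 ± 0.437. On the endocytic route, the ratio of Rab5 to Rab21 went from 6.59 ± 0.435 to 10.5 ± 0.511. The ratio of Rab7 to Rab39 went from 5.92 ± 0.423 to 11.5 ± 0.476, and that of Rab7 to Rab9 from 33.8 ± 2.48 to 94.8 ± 11.6.

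**Figure D4:**
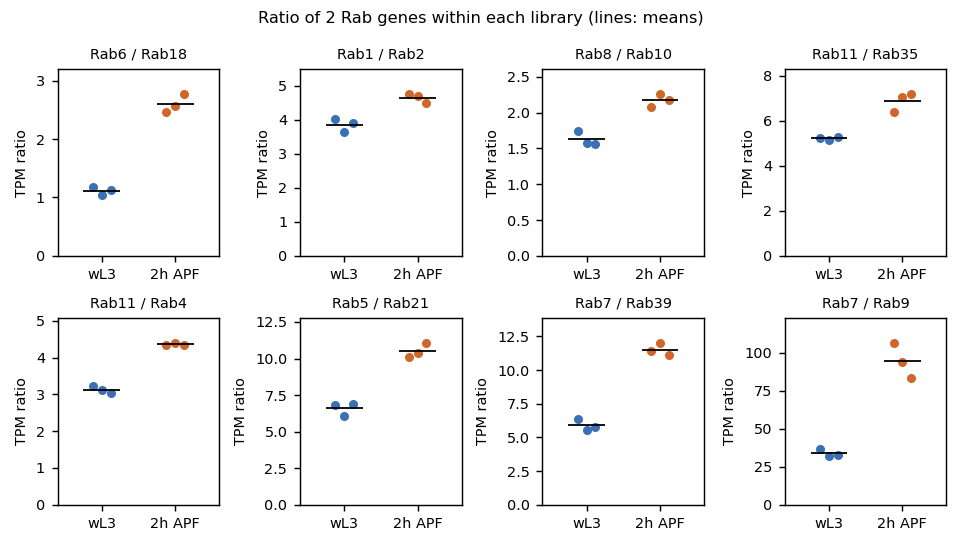
Ratio of the TPM of paired Rab genes of the same step in each library, on a linear axis from 0 with the means as lines. The direction follows from the choice of pairs, and the ratio of Rab6 to Rab18 goes from 1.11 to 2.60 on average.

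The 33 members had 67 target transcripts, of which 49 passed the filter, 14 rose and 2 fell, where 42.6% of the 17601 targets tested in all were called in either direction. Rab5 had 9 targets, all annotated with the same coding sequence. Its target RG took 3.49%, 2.12% and 3.56% of the TPM of Rab5 at wL3 and 7.10%, 5.15% and 5.67% at 2h APF. The shares did not overlap, and RG rose more than the gene as a whole (log2 fold change 1.54 ± 0.260 SE, edgeR adjusted p = 0.00465), while RE, the main target, rose by 0.57 (adjusted p = 9.50e-04). The difference between RG and RE was not tested.

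For Rab7, the minor target RB rose (log2 fold change 1.5 ± 0.450 SE, edgeR adjusted p = 0.0394), from 0.771%, 1.65% and 1.49% to 1.97%, 3.99% and 2.1% of the gene. Both Rab11 targets rose, RB with 264 TPM at wL3 (0.39, adjusted p = 6.26e-04) and RA with 18.3 TPM (0.45, adjusted p = 0.00266), so their proportion was close to constant. The Rab27 fall was carried by RC (-1.78, adjusted p = 1.79e-04) and the Rab32 rise by RC of that gene (1.33, adjusted p = 0.0104). Of Rab8, RA rose (0.59, adjusted p = 6.49e-04), whereas RC, with 21.9%, 20.7% and 7.93% of the gene at wL3 and 12.6%, 8.40% and 7.87% at 2h APF, overlapped and did not pass (adjusted p = 0.560). Targets that share most of their sequence divide the reads by estimation, and that uncertainty is not part of these tests.

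The regulators of the Rabs were read from a list of 68 genes, chosen with earlier results of these data known, of which 67 were found and 66 tested. Of these, 30 rose and 10 fell, with a median log2 fold change of 0.11, near that of the Rabs. The share that rose was 45.5%, against the 30.6% given above for all genes, and 10 of 66 fell where 36.9% of all genes did. With total library size 24 were higher and 20 lower, where 2209 of all genes were higher and 4129 lower. DESeq2 called 31 higher and 4 lower, where 2891 of all genes were higher and 2832 lower. In the prenylation and membrane cycle group 4 of 5 rose. *Gdi*, which extracts inactive Rabs from membranes, had the highest level of this group and went from 494 ± 11.0 to 789 ± 21.9 CPM (SD, n = 3). It rose by 0.67 on the log2 scale (edgeR adjusted p = 4.33e-06). *Rep*, the escort protein, rose by 0.32, and the prenyltransferase subunits *RabGGTa* and *RabGGTb* by 0.44 and 0.46. *temp*, the fifth, fell by 0.38 (edgeR adjusted p = 0.00207).

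Of 22 exchange factors, 7 rose (31.8%, near the 30.6% of all genes) and 4 fell, where 36.9% of all genes fell. The largest rise was that of *spri*, a Rab5 exchange factor of the RIN type, from 83.4 to 192 CPM (log2 fold change 1.20, edgeR adjusted p = 5.59e-06). *Rich*, the fly counterpart of a Rab6 exchange factor subunit, rose by 0.76 and *brun*, a TRAPPII subunit, by 0.59. *Ccz1*, of the complex that activates Rab7, and the TRAPP subunit *Bet5* fell by 0.22 and 0.21, but neither call held under every alternative (adjusted p up to 0.222 and 0.214). The median of the group was 0.03.

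Of the 14 GAPs, 4 rose and 4 fell (28.6% each, against 30.6% and 36.9% of all genes). *Evi5*, a GAP for Rab11, rose by 0.80 (edgeR adjusted p = 4.04e-06), *RN-tre* by 0.38 and *wkd* by 0.24. *plx* fell by 0.81 (adjusted p = 0.00115), *Rab3GAP1* by 0.26 and *sky*, a GAP for Rab35, by 0.21. The calls of *wkd* and *sky* were lost under some alternatives (adjusted p up to 0.0765 and 0.0616). Rab11 and its GAP *Evi5* thus both rose.

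The effectors and tethers rose in 15 of 25 tested cases (60%) and fell in 1, where 30.6% of all genes rose and 36.9% fell. The share called in either direction was 64%, near the 67.4% of all genes. *Rph*, a synaptic effector of Rab3 and Rab27, had the largest fold change, 1.35, but at 0.676 to 1.73 CPM. *GM130*, a Golgi matrix protein that binds Rab1, went from 52.3 to 102 CPM (0.96, edgeR adjusted p = 7.26e-06), and *Rip11*, an effector of Rab11, from 106 to 206 CPM (0.96, adjusted p = 3.05e-05). Among further partners of the Rabs that rose, *didum*, the myosin V that binds Rab11 (0.91), *nuf*, another Rab11 effector (0.58), and *BicD*, the dynein adaptor bound by Rab6 (0.44), also rose. *Sec15*, the exocyst subunit bound by Rab11 (0.04), *Rbsn-5*, an effector of Rab5 (0.03), and *Ehbp1*, a partner of Rab8 (-0.08), did not pass (edgeR adjusted p = 0.478, 0.537 and 0.0642). *Vps39*, a subunit of the HOPS tether that acts with Rab7, fell by 0.21 (adjusted p = 0.00464), a call that DESeq2 did not make (adjusted p = 0.0711). Of the other HOPS subunits on the list, *Vps16A* rose by 0.19 (edgeR adjusted p = 0.00501), which was lost under some alternatives (adjusted p up to 0.176), and *lt*, *Vps11*, *car* and *dor* did not pass.

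**Figure D5:**
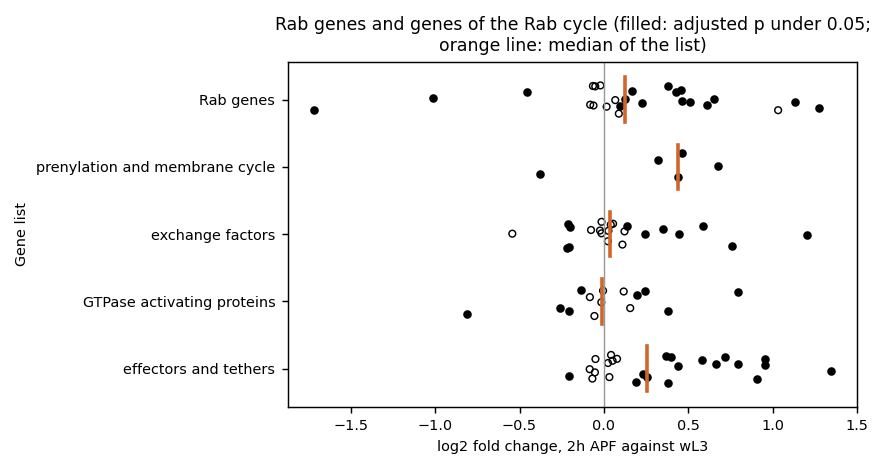
Log2 fold change (2h APF relative to wL3) of the tested genes of each group of Rab regulators, beside the Rab genes themselves, 1 point per gene with the median marked. The medians are 0.44 for prenylation and membrane cycle, 0.03 for exchange factors, -0.01 for GAPs and 0.26 for effectors and tethers.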

How the data were processed

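The authors assigned paired reads from strand-specific polyA libraries to transcripts with kallisto and deposited, per library, the estimated counts and the TPM of 42506 targets. The submitters' processing notes name the dm3 build, and the study's annotation was Ensembl 74. Sleuth results were not used here. By FlyBase identifier, 27011 targets (96.4% to 96.6% of the counts) were matched to 15259 genes of BDGP6.54 (Ensembl 115). For each gene the counts of its targets were added and rounded. Genes that could not be told apart because all their values were equal (57 groups) entered as 1 gene each, giving 15132 genes. Differences between wL3 and 2h APF were tested with edgeR 4.0.16 in R 4.3.3 (TMM, filterByExpr, quasi-likelihood test, Benjamini-Hochberg), without a replicate block. A standard error is the log2 fold change divided by the square root of F, and folds are ratios of mean CPM. Summed TPM was compared with an exact permutation test.

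The Rab genes, their steps and the lists were chosen with earlier results of these data known. By the rule for named genes, every Rab gene, the prenylation list and the 3 largest changes in each direction of each regulator list may be named, and known partners of a Rab. A result that this rule allows is not reported here. The fits were tested on simulated data. The alternatives used DESeq2 1.42.0, limma 3.58.1, other scalings and filters, and each library left out in turn. Further steps used scipy 1.17.1, pandas 2.3.3 and numpy 2.4.6 in Python 3.11.15, with matplotlib 3.10.9 for the plots.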

Additional observations from a re-analysis of the deposited data

How the results depend on the processing

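Of the 25 tested Rab genes, 14 kept their direction and their side of the threshold under each of 15 alternatives. Rab1, Rab2, Rab5, Rab6, Rab7, Rab8, Rab11, Rab23 and Rab32 stayed higher, Rab9, Rab27 and Rab39 stayed lower, and Rab21 and RabX6 stayed uncalled. When scaled by total library size, 5 Rab genes were lower rather than 3, as were 20 regulators rather than 10. Of the Rab transcripts 4 were lower rather than 2, and of all genes 4129 rather than 3296. With that scaling the log2 fold changes of Rab10 (-0.0249), Rab35 (-0.0966), Rab40 (-0.0175) and RabX1 (-0.0462) turned. The value of RabX4 turned to 0.0270 with DESeq2, 0.0151 with at least 10 counts in every library and 0.0046 with counts rescaled from TPM. With each library left out in turn, RabX4 ranged from -0.183 to 0.0649, with 3 of the 6 values above 0, and Rab35 from -0.0166 (without 2h APF replicate 1) to 0.0666. The cause was not tested.

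Tested against a change of 1 log2 unit (glmTreat), 1 Rab gene was higher and 1 lower, 1 regulator was higher, and over all genes 530 were higher rather than 871 and 474 lower rather than 796. Beyond 1 log2 unit, 1 Rab gene was lower with DESeq2, with at least 10 counts in every library, with counts rescaled from TPM and with limma on log2(TPM + 0.5) or log2(TPM + 0.1). DESeq2 called 4 regulators lower at any size and 0 lower beyond 1 log2 unit. Beyond 1 log2 unit, it called 4 regulators higher, and limma on log2(TPM + 0.5) called 1 higher. With each library left out in turn, 10 to 14 Rab genes were higher and 3 lower at any size. Beyond 1 log2 unit, 2 to 3 Rab genes were higher and 1 to 2 lower. Of the regulators, 6 to 9 were then lower at any size. Beyond 1 log2 unit, 2 to 4 regulators were higher and 0 lower. The summed Rab ratio was 1.34 without the members that have no step, 1.36 as CPM and 1.32 to 1.33 with each library left out, the last chosen after seeing the data.

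The deviations of libraries with the same replicate number correlated at 0.0261, 0.161 and -0.276, and those with unlike numbers at -0.287 to 0.29. No pairing by number was seen, but 3 libraries per stage are too few to exclude it. With the replicate number as a block, 12 Rab genes were higher and 3 lower, with Rab40 lost (adjusted p = 0.0659), and 2595 and 3064 of all genes. Rab3 had as few as 16 counts in a library, and Rab26 and the 7 lower members did not pass the expression filter. With no filter on low counts, 30 members entered the fit, and Rab26 was not called (edgeR adjusted p = 0.526).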

Other observations

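Another family of small GTPases was read in the same fit. Of the Arf family, whose members recruit coats and golgins to Golgi and other membranes, 9 of 11 tested genes rose and none fell, with a median log2 fold change of 0.50. *Sar1*, which starts the COPII coat at the ER, went from 268 to 531 CPM (0.99, edgeR adjusted p = 6.35e-06), and *Arf1*, which recruits the COPI coat, rose by 0.52 from the highest level of that family, 816 CPM at wL3. *dnd* had the largest fold change, 1.95, at 1.08 to 4.19 CPM. Among all genes tested, 30.6% rose.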
